A study of Mus musculus with 12 samples.

Results

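Osteopontin, encoded by Spp1, and the genes of its receptors were followed in 562 cells, a cell line that arose from vascular tumors of C57BL/6 mice and became immortal spontaneously. The members were the 9 genes Spp1, Cd44, Itgav, Itgb1, Itgb3, Itgb5, Itga4, Itga5 and Itga9, taken by gene symbol out of the 14851 genes in the deposited tables. The cells of every group, control included, came from Tsc1 f/f;Scl-Cre mice given tamoxifen, which removes Tsc1 from endothelial cells. The 4 groups were control cells and cells with KO of Fip200, Atg5 or Atg7, each with 3 RNA-sequencing libraries (12 in all). Each KO was made in this one line with LentiCRISPR v2 and puromycin selection, and a guide RNA against EGFP served as the control in the methods. The study describes the replicates as independent mRNA samples and its experiments in general as repeated with biological replicates, without naming separate cultures for these libraries, and p-values measure the spread between them, which may be partly technical. The question was how loss of each autophagy gene bore on the RNA of osteopontin and of the receptors through which a cell can respond to it.

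Osteopontin is a secreted, phosphorylated glycoprotein of bone and of many tumors. An arginine-glycine-aspartate motif in it binds the integrins αvβ1, αvβ3, αvβ5 and α5β1, a neighbouring stretch that thrombin cleavage exposes binds α4β1 and α9β1, and CD44 is a further receptor. Integrins work as pairs of an α and a β chain, so that the RNA of one chain alone does not give the amount of a pair. Levels below are in RPKM, the reads of a gene scaled to its length and to the reads of the library, which allows genes to be compared with each other. A gene entered a test when 3 or more of the libraries compared reached 0.5 RPKM, and it was called when the adjusted p was at most 0.1 and the log2 fold change at least 1 in size. Fold changes are on the scale of log2 of RPKM plus 0.5, which understates the change of low genes, and adjusted p-values come from limma over all genes tested. Of the 9 members, 8 passed the filter and Itga9 did not.

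Library totals ran from 17264989 to 23627965 reads, recovered from the RPKM values, and a floor of 3 reads covers counting error only. The targeted genes were a weak check of the labels, since a guide RNA can disrupt a protein and leave its RNA. Atg7 had 5.40, 2.64 and 8.34 RPKM in Atg7 KO against 18.4 to 25.0 in control and was called (log2 fold change −1.97, adjusted p = 0.0216 by limma). It was also below all controls in Atg5 KO (9.94 to 11.9 RPKM, log2 −0.95), and Fip200 KO had 8.23 to 38.3 RPKM, so that the lower level was not limited to Atg7 KO. Rb1cc1, the gene of Fip200, had 2.06 to 6.84 RPKM in Fip200 KO against 6.43 to 8.27 in control, and Atg5 had 8.53 to 15.5 RPKM in Atg5 KO against 10.6 to 14.2, so that both overlapped control and neither was called (adjusted p = 0.404 and 0.994 by limma). The summed level of the 9 endothelial markers was 1145 to 2913 RPKM, although 1 of them, Flt1, was at 0.145 to 15.9 RPKM in the KO libraries against 16.1 to 34.1 in control. Of the lymphatic markers, Lyve1 was at 60.6 to 393 RPKM, while Prox1, the defining transcription factor of lymphatic endothelium, was between 0.04 and 5.79 RPKM.

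3 members stood apart in the KO cells, and their promoters are shown for that reason. The decrease of Spp1 and Itgb5 passed the thresholds in 2 KO groups, and the increase of Itga4 passed them in 3. In Fip200 KO the log2 fold changes of Spp1 (−2.46) and Itgb5 (−2.41) were negative as well, but their adjusted p-values did not pass (0.305 and 0.278 by limma). Each window holds the 250 bases before the RefSeq start site in GRCm38.p6, on the plus strand, which is the coding strand of all 3 genes. Capitals mark matches on either strand to TATAAA of the TATA box, to the RUNX motif TGTGGT, to the ETS motif AGGAAGT and to the GC box GGGCGG, which did not overlap one another in these windows. The letters TGANTCA (AP-1), CACGTG (E-box) and TGACGTCA (CRE) were searched as well and had no match in the 3 windows.
Spp1, chr5:104434861-104435110: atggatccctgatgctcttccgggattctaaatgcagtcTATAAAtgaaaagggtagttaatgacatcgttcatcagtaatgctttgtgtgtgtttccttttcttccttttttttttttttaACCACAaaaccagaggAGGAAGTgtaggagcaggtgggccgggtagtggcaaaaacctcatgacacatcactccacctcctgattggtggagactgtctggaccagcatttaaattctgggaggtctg
Itgb5, chr16:33829415-33829664: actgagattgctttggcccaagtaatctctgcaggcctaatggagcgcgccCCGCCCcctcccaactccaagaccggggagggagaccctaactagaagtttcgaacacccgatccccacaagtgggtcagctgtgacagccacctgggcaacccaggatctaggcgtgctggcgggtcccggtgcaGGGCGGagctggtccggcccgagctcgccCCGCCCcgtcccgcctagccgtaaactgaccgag
Itga4, chr2:79255176-79255425: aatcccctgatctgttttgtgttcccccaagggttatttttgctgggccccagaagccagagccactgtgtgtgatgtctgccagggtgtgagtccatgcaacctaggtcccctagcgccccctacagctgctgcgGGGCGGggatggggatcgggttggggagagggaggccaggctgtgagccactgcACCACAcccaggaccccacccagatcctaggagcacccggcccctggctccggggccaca
The Spp1 window held 1 TATA match, 1 RUNX match and 1 ETS match, which began 211, 128 and 112 bases before the start site. The window was 43.6% G or C, against 65.2% for Itgb5 and 64.0% for Itga4 and a median of 52.4% over 32851 promoter windows. The Itgb5 window held 3 GC boxes, and the Itga4 window held 1 GC box and 1 RUNX match. Across all windows, 12.4% held the TATA letters, 14% the RUNX letters, 7.69% the ETS letters and 32.7% a GC box. RefSeq lists a further Spp1 start site downstream, whose window held none of these letters.

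Spp1 (gene ID 20750) fell in Atg5 KO and Atg7 KO cells. It had 59.4, 1370 and 127 RPKM in control. The Fip200 KO libraries had 29.9, 38.0 and 53.2 RPKM, those of Atg5 KO 9.47, 13.9 and 5.79, and those of Atg7 KO 6.27, 6.17 and 10.9. All 9 KO libraries lay below the lowest control, and all Atg5 KO and Atg7 KO libraries lay below all Fip200 KO libraries. Control replicate 2 was 23.0 times control replicate 1, and Spp1 was the 15th most abundant of all genes there, from 61284 reads. The log2 fold change was −4.50 ± 1.07 (SE, n = 3 against 3) in Atg5 KO, with an adjusted p of 0.023 by limma, and −4.77 ± 1.04 in Atg7 KO, with an adjusted p of 0.030. In Fip200 KO it was −2.46 ± 1.04, with a 95% interval of −4.89 to −0.03, and it did not pass (adjusted p = 0.305 by limma). The exact permutation test of 3 against 3 gave 0.1 in each comparison, the smallest two-sided p it allows. Over the 9 KO libraries the mean log2 fold change was −3.91 ± 0.71 (adjusted p = 0.007 by limma, exact permutation p = 0.00909, the smallest it allows).

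The size of the Spp1 change rested on control replicate 2. Without that library the log2 fold change was −3.18 in Atg5 KO (adjusted p = 0.014 by limma), −3.45 in Atg7 KO (0.038) and −1.14 in Fip200 KO (0.479). Library names carry the prefixes FY, JG and Yang in the labels, and what these stand for is not given. Control replicate 1 and all Fip200 KO libraries were FY, control replicates 2 and 3 and Atg5 KO replicates 1 and 2 were JG, and Atg5 KO replicate 3 and all Atg7 KO libraries were Yang. Within FY the Spp1 log2 difference of Fip200 KO from the 1 control was −0.59. Within JG that of Atg5 KO from the 2 controls was −5.13. No control had the prefix Yang. With the prefix fitted beside the group the Atg7 KO value was −4.78 and was no longer called (adjusted p = 0.297 by limma). Atg7 KO and its prefix cannot be told apart within its own comparison, since the fit of all 12 libraries with this term separates them only through Atg5 KO replicate 3.

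**Figure D1:**
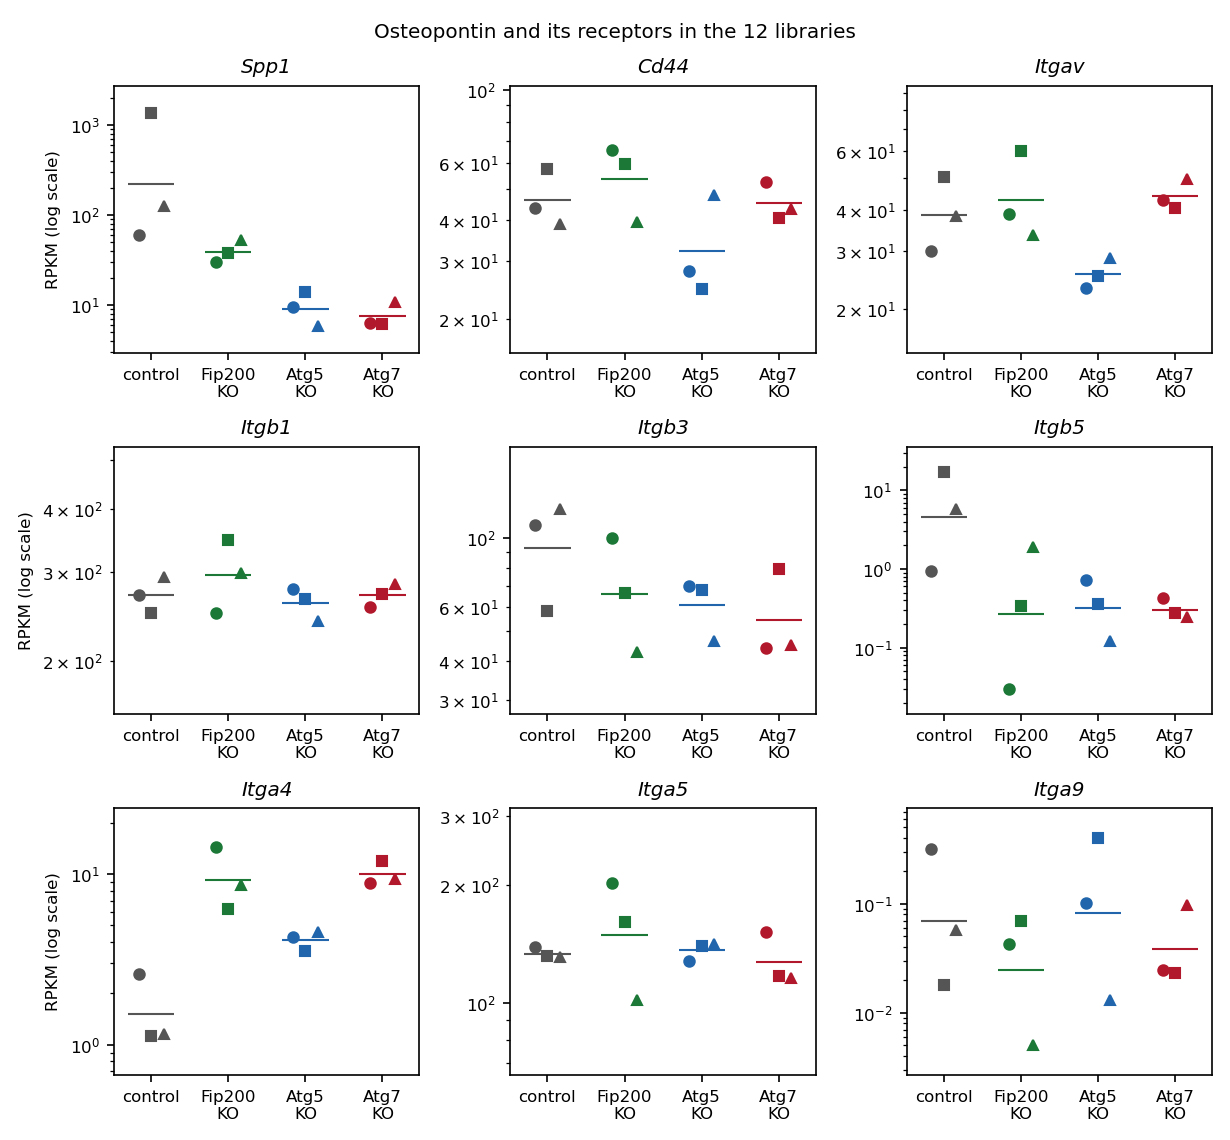
RPKM of the 9 members on log axes, each panel with its own range, by group. Circles, squares and triangles are replicates 1, 2 and 3, bars are geometric means, and the Itga9 value of 0 in Fip200 KO replicate 3 is drawn at 0.005 RPKM. Spp1 lies below the lowest control in all 9 KO libraries and Itga4 lies above the highest control in all 9.

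Itgb5 (gene ID 16419), the β chain of αvβ5, fell in Atg5 KO and Atg7 KO cells. Control libraries held 0.941, 17.3 and 5.77 RPKM, from 61, 1396 and 390 reads. Fip200 KO had 0.0295, 0.334 and 1.92 RPKM, Atg5 KO 0.727, 0.355 and 0.122, and Atg7 KO 0.423, 0.273 and 0.244. All Atg5 KO and Atg7 KO libraries lay below all controls, whereas Fip200 KO replicate 3 lay above control replicate 1. The log2 fold change was −2.65 ± 0.84 (SE, n = 3 against 3) in Atg5 KO (adjusted p = 0.054 by limma) and −2.75 ± 0.81 in Atg7 KO (0.063). All 3 Atg7 KO libraries were under 0.5 RPKM, so that the gene entered that test only through the controls, where it was high. Without the filter its adjusted p there was 0.091. It was −2.41 ± 0.94 in Fip200 KO and did not pass (adjusted p = 0.278 by limma). Fip200 KO replicate 1 held 2 reads, under the floor of 3 reads.

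As with Spp1, control replicate 2 held most of the Itgb5 RNA, 72.0% of the sum of the 3 controls. Without it the Atg5 KO log2 fold change was −1.79 (adjusted p = 0.098 by limma), the mean over the KO groups moved from −2.60 (0.021) to −1.75 (0.117), and without any 1 of the controls the gene did not pass the filter in Atg7 KO. The Itgb5 calls were also lost on recovered reads with voom, with an adjusted p of 0.131 in Atg5 KO and 0.135 in Atg7 KO. The log2 fold changes by voom were larger in size, −3.92 and −3.95. The Atg5 KO call was lost without control replicate 3 (adjusted p = 0.139 by limma) or Atg5 KO replicate 2 or 3 (0.120 and 0.133). That of Atg7 KO was lost without Atg7 KO replicate 1 or 3 (0.149 and 0.137). Within FY the Itgb5 log2 difference of Fip200 KO from control was −0.49. Within JG that of Atg5 KO from control was −3.37. With the prefix fitted beside the group the Atg7 KO value was −2.98 (adjusted p = 0.411 by limma).

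Itga4 (gene ID 16401), the α4 chain that pairs with β1 or β7, rose in all 3 KO groups. Control libraries held 2.60, 1.13 and 1.16 RPKM, from 485, 263 and 226 reads. Fip200 KO libraries reached 14.3, 6.25 and 8.68 RPKM, Atg5 KO libraries 4.26, 3.53 and 4.56, and Atg7 KO libraries 8.89, 11.9 and 9.35. Every KO library lay above every control, and the Atg5 KO libraries lay below all those of Fip200 KO and Atg7 KO. The log2 fold change was 2.26 ± 0.39 (SE, n = 3 against 3) with loss of Fip200, 1.18 ± 0.28 with loss of Atg5 and 2.36 ± 0.29 with loss of Atg7, with adjusted p-values of 0.067, 0.023 and 0.009 by limma. The mean over the 9 KO libraries was 1.93 ± 0.26 (adjusted p = 0.002 by limma, exact permutation p = 0.00909). Leaving out control replicate 2, the library with the highest Spp1 and Itgb5, gave 2.10, 1.02 and 2.20 for the 3 KO groups in the same order.

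The Fip200 KO call of Itga4 was the least secure of these, with an adjusted p between 0.006 and 0.455 over 16 alternatives. It was lost without control replicate 2 (adjusted p = 0.309 by limma), control replicate 3 (0.455), Fip200 KO replicate 1 (0.106) or Fip200 KO replicate 2 (0.115). Its log2 fold change stayed between 1.95 and 2.56 when single libraries were left out. The call was also lost without the filter (adjusted p = 0.106 by limma) and with the prefix fitted beside the group (log2 1.65, 0.288). Within FY the difference of Fip200 KO from control was 1.65, and within JG that of Atg5 KO from control was 1.41. With the prefix fitted beside the group Atg7 KO had 2.46 (adjusted p = 0.179 by limma). RefSeq places the gene Cerkl over part of Itga4, and how strand was used in counting is not given. Cerkl itself held at most 2 reads in any library and none in 8 of the 12.

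**Figure D2:**
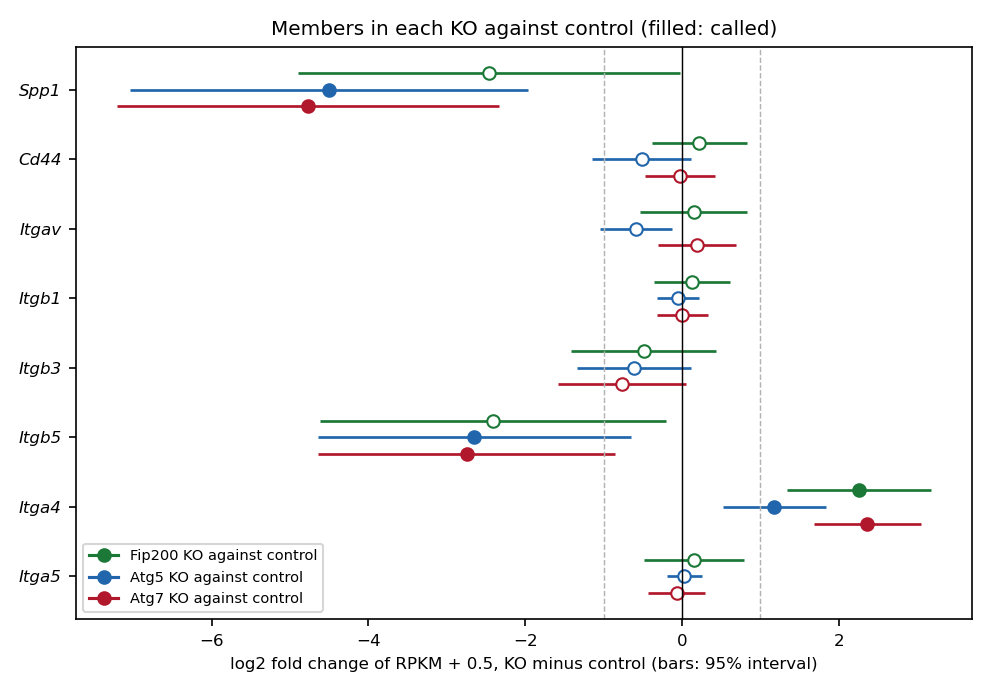
Log2 fold change of RPKM plus 0.5 in each KO against control for the 8 tested members, with 95% intervals, 3 libraries against 3. Filled points were called, open points were not, and dashed lines mark a log2 fold change of 1 in either direction. Spp1 and Itgb5 lie left of 0 and Itga4 lies right of 0 in all 3 comparisons, which share the same controls.

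The β1 chain, common to α4β1, α5β1, αvβ1 and α9β1, was the most abundant receptor RNA and differed little between groups. Itgb1 (gene ID 16412) was at 249 to 293 RPKM in control, while the Fip200, Atg5 and Atg7 KO libraries ran from 249 to 347, from 240 to 278 and from 256 to 284. The 95% interval of its log2 fold change was −0.36 to 0.62 for Fip200, −0.32 to 0.22 for Atg5 and −0.33 to 0.33 for Atg7, so that a change as large as the threshold lay outside all 3. Itga5 (gene ID 16402), the α chain of the fibronectin receptor α5β1, was at 130 to 138 RPKM in control and 101 to 203 over the KO libraries. Its intervals, in the same order, were −0.48 to 0.79, −0.20 to 0.25 and −0.44 to 0.30. Both genes overlapped control in every KO group.

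Itgav (gene ID 16410), the αv chain, was not called in any KO group. It had 30.0, 50.1 and 38.4 RPKM in control and 38.9, 60.1 and 33.5 without Fip200. Atg5 KO libraries held 23.2, 25.1 and 28.5 RPKM, and Atg7 KO libraries 42.7, 40.5 and 49.5. All Atg5 KO libraries lay below all controls, and the log2 fold change of −0.59 passed the adjusted p (0.061 by limma) but not the fold threshold. In Atg7 KO the libraries overlapped control, with a log2 fold change of 0.19 (95% interval −0.30 to 0.68, adjusted p = 0.557 by limma). Itgb3 (gene ID 16416), the partner of αv in αvβ3, was at 58.1 to 125 RPKM in control, and the KO groups spanned 42.8 to 100 (Fip200), 46.7 to 70.1 (Atg5) and 44.3 to 79.6 (Atg7). Its log2 fold changes of −0.49, −0.61 and −0.77 did not pass, with adjusted p-values of 0.560, 0.172 and 0.166 by limma. In Atg7 KO it was called without control replicate 2 (−1.10, adjusted p = 0.092 by limma), without Atg7 KO replicate 2 (−1.04, 0.067) and with array weights (−1.23, 0.010), and had −0.083 with the prefix fitted (0.981). In contrast to Spp1 and Itgb5, the lowest control value of Itgb3 was in replicate 2.

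Cd44 (gene ID 12505), the hyaluronan receptor, overlapped control in every KO group. It had 43.7, 57.3 and 39.0 RPKM in control and 65.4, 59.6 and 39.6 without Fip200. Loss of Atg5 went with 28.0, 24.7 and 47.7 RPKM, and loss of Atg7 with 52.5, 40.6 and 43.4. The log2 fold changes were 0.22, −0.51 and −0.03, with adjusted p-values of 0.698, 0.182 and 0.938 by limma. Itga9 (gene ID 104099), the α9 chain, was at most 0.404 RPKM in any library, from 0 to 59 reads. The library with 0 reads, Fip200 KO replicate 3, allows up to 3 reads for this gene, and 2 to 3 reads were counted in a further 4 libraries.

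The order of the members by mean RPKM changed mainly through Spp1 and Itga4. In control Spp1 came first at 519 ± 738 RPKM (SD, n = 3), and Itgb1, with an overlapping range, followed at 270 ± 21.9. The first place rested on control replicate 2, which held 88.0% of the control sum of Spp1. In control replicates 1 and 3 Spp1 (59.4 and 127 RPKM) lay below Itgb1 (270 and 293) and Itga5 (138 and 130). Spp1 came after Itgav without Fip200 or Atg5, and after Itga4 without Atg7. Its range overlapped that of Itgav in Fip200 KO and that of Itga4 in Atg7 KO. Itgb1, Itga5, Itgb3, Cd44 and Itgav kept this order in all 4 groups, with the ranges of Itgb3 and Cd44 overlapping in each KO group and those of Cd44 and Itgav in every group. The ratio of Spp1 to Cd44 RPKM was 1.36 to 23.9 in control, and 0.46 to 1.34, 0.12 to 0.56 and 0.12 to 0.25 with loss of Fip200, Atg5 and Atg7. Among the 3 β chains that pair with αv here, Itgb5 made up 0.25% to 5.32% of their summed RPKM in control and at most 0.56% in any KO library. The ratio of Itga5 to Itga4 was 53.2 to 116 in control, and 11.7 to 25.6, 30.0 to 39.6 and 9.84 to 17.0 in the same order.

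Of the 8 tested members, 1 was called in Fip200 KO, where 1.98% of all 11803 tested genes were called. That member was called higher, as were 0.347% of the genes tested, and 0 members were called lower by limma or voom, against 1.64% of genes, with 2 (Spp1 and Itgb5) at an unadjusted p under 0.05 by limma. With array weights Itgb5 was called lower (−2.69, adjusted p = 0.056 by limma), in a fit that called 1141 genes. Of the 2 members with no overlap, Spp1 was lower in every library and Itga4 higher, beside 12.4% of genes all lower and 11.7% all higher.

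In Atg5 KO 3 members were called, against 11.2% of 11833 genes, with 2 lower (6.94% of genes) and 1 higher (4.31%). All 3 libraries lay below all controls for Spp1, Itgb5 and Itgav, as for 22% of genes, and above them for Itga4, as for 28.4%. In Atg7 KO 3 members were called, against 10.1% of 11784 genes, again with 2 lower (6.81%) and 1 higher (3.29%), and libraries did not overlap for Spp1, Itgb5 and Itga4, beside 20.4% of genes all lower and 19.2% all higher. The mean of the KO groups against control called 3 members, against 8.23% of 12233 genes, with 2 lower (5.86%) and 1 higher (2.37%). In that comparison Spp1 was lower in all 9 KO libraries than in any control, as were 7.28% of tested genes, and Itga4 was higher in all 9, as were 6.02%. The median log2 fold change of the tested members was 0.14 for Fip200, −0.55 for Atg5 and −0.05 for Atg7, beside 0.02, 0.06 and −0.01 over all genes tested. The 3 comparisons with control used the same control libraries.

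Differences between the KO groups were tested directly, and no member was called in any of the 3 pairs (0% of 12233 genes in each by limma). At an unadjusted p under 0.05 the pairs held 927, 916 and 562 genes, and voom called 0 as well. Spp1 was lower than in Fip200 KO by a log2 of −2.04 in Atg5 KO (95% interval −3.95 to −0.13, adjusted p = 0.632 by limma) and of −2.31 in Atg7 KO (−4.22 to −0.41, adjusted p = 0.589), with no overlap of libraries in either. Such an arrangement, all lower than Fip200 KO, was found for 5.91% of tested genes in Atg5 KO and 4.37% in Atg7 KO, and the opposite one for 8.44% and 3.86%. With the prefix fitted beside the group these Spp1 differences were −4.53 and −4.18, and neither was called. Itga4 was 1.19 higher in Atg7 KO than in Atg5 KO (0.49 to 1.88, adjusted p = 0.888 by limma), with all libraries higher, as for 5.38% of genes, and 11.2% were all lower. With array weights, which give less weight to libraries that vary more, Cd44 (−1.06, adjusted p = 0.044 by limma) and Itgav (−1.13, 0.037) were called in Atg5 KO against Fip200 KO, as was Itga4 (1.12, 0.012) in Atg7 KO against Atg5 KO. The same fits called 462 and 381 of the 12233 genes.

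**Figure D3:**
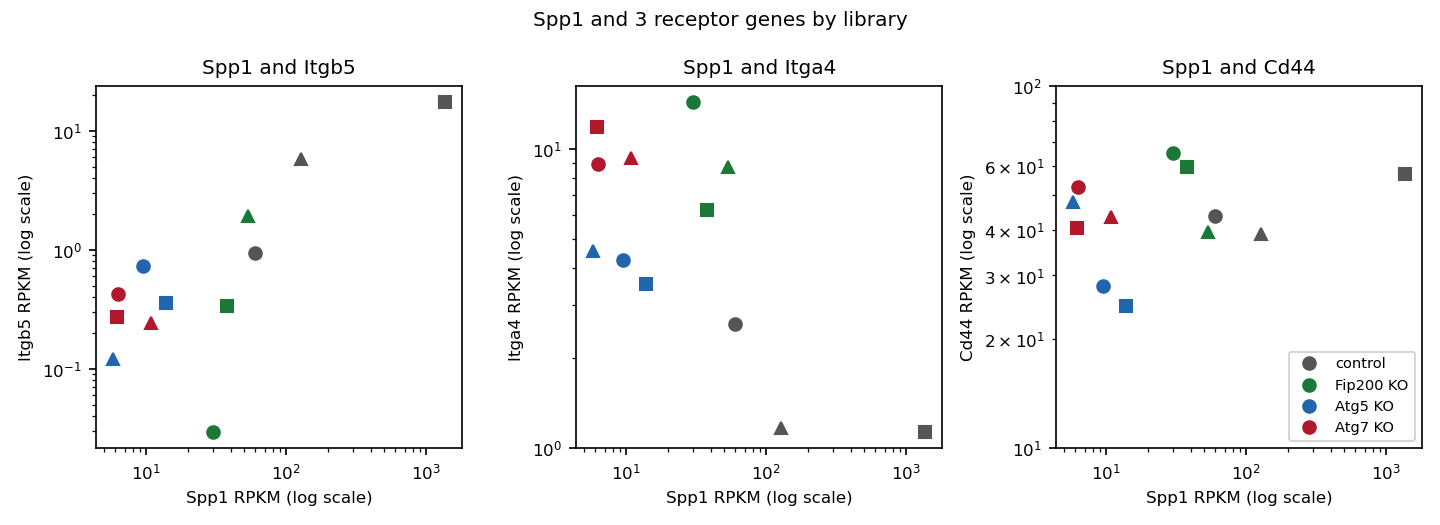
RPKM of Itgb5, Itga4 and Cd44 against that of Spp1 in the 12 libraries, on log axes. Circles, squares and triangles are replicates 1, 2 and 3 of each group, which the colours mark. Control replicate 2 is highest for Spp1 and Itgb5 and lowest for Itga4, while Cd44 spans 24.7 to 65.4 RPKM with no such order.

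Across the 12 libraries, log2 of RPKM plus 0.5 of Itgb5 had a Pearson correlation of 0.88 with that of Spp1, and Itga4 one of −0.67. The other 5 tested members lay between −0.03 and 0.34. These libraries share groups, so the values describe the pattern only. The genes whose pattern was most like that of Spp1 were Herpud1 (0.96), Igsf8 (0.94), Hhipl1 (0.94), Snx18 (0.93) and Klhdc1 (0.93). Herpud1, an endoplasmic reticulum membrane protein of protein quality control, ran from 41.4 to 112 RPKM in control and from 16.7 to 27.6 over the KO libraries. Nearest to Itgb5 were Pdgfc (0.96), a growth factor of the PDGF family, Abr (0.96) and Marc2 (0.95).

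Markers of other cells were set beside these results. Of the 7 fibroblast markers among the listed genes, 4 had their highest value of the 12 libraries in control replicate 2, as Spp1 and Itgb5 did. Col3a1, a fibrillar collagen, was at 2.82, 143 and 23.1 RPKM in control, Dcn, the proteoglycan decorin, at 0.13, 56.9 and 15.2, Pdgfra at 0.11, 9.02 and 2.26, and Pdgfrb at 0.02, 4.19 and 0.26. In the KO libraries Dcn reached at most 0.99 RPKM, Pdgfra at most 0.32 and Pdgfrb at most 0.19, while Col3a1 ran from 0.16 to 34.3 and was above control replicate 3 in Fip200 KO replicate 2 and Atg5 KO replicate 3. Col1a1 and Col1a2, defining fibroblast collagens, were at most 0.08 and 0.02 RPKM in control and at most 0.48 and 1.54 over the KO libraries. Thy1 was at 2.36 to 17.7 RPKM in control, 71.2 to 346 in 8 of the 9 KO libraries and 0.21 in Fip200 KO replicate 3. The summed fibroblast level, Thy1 included, was 20.9 to 225 RPKM in control, and 2.71 to 290, 111 to 241 and 72.6 to 349 with loss of Fip200, Atg5 and Atg7.

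Control replicate 2 also had the lowest value of the 12 libraries for 7 of the 9 endothelial markers. Cdh5, the junction protein VE-cadherin, was at 310, 116 and 271 RPKM in control, and the summed endothelial level was 1145 RPKM in that library against 1865 and 2740 in the other controls. A shift of this kind and less RNA per cell cannot be told apart in bulk RNA. The part of these markers in the Spp1 and Itgb5 results was not tested. Of the macrophage markers, Ptprc, Adgre1, Csf1r and Mrc1 were at most 0.18 RPKM in any library, while Cd14, Lyz2 and Cd68 were detected, and the summed macrophage level was 108 to 134 RPKM in control and 23.4 to 285, 26.0 to 30.4 and 24 to 31.7 with loss of Fip200, Atg5 and Atg7. Of the osteoblast markers, Runx2 was at 0.464, 4.01 and 1.82 RPKM in control and at most 0.646 over the KO libraries, and Alpl was at most 0.15 RPKM in control and at most 0.464 in 8 KO libraries, with 6.72 RPKM in Fip200 KO replicate 3. The smooth muscle genes Myh11, Cnn1 and Des stayed under 0.5 RPKM in every library, while Acta2 was at 0.444 to 2.91 RPKM in control and 0.902 to 15.2 in KO libraries, and Tagln at 0.454 to 2.23 and 2.10 to 51.1.

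**Figure D4:**
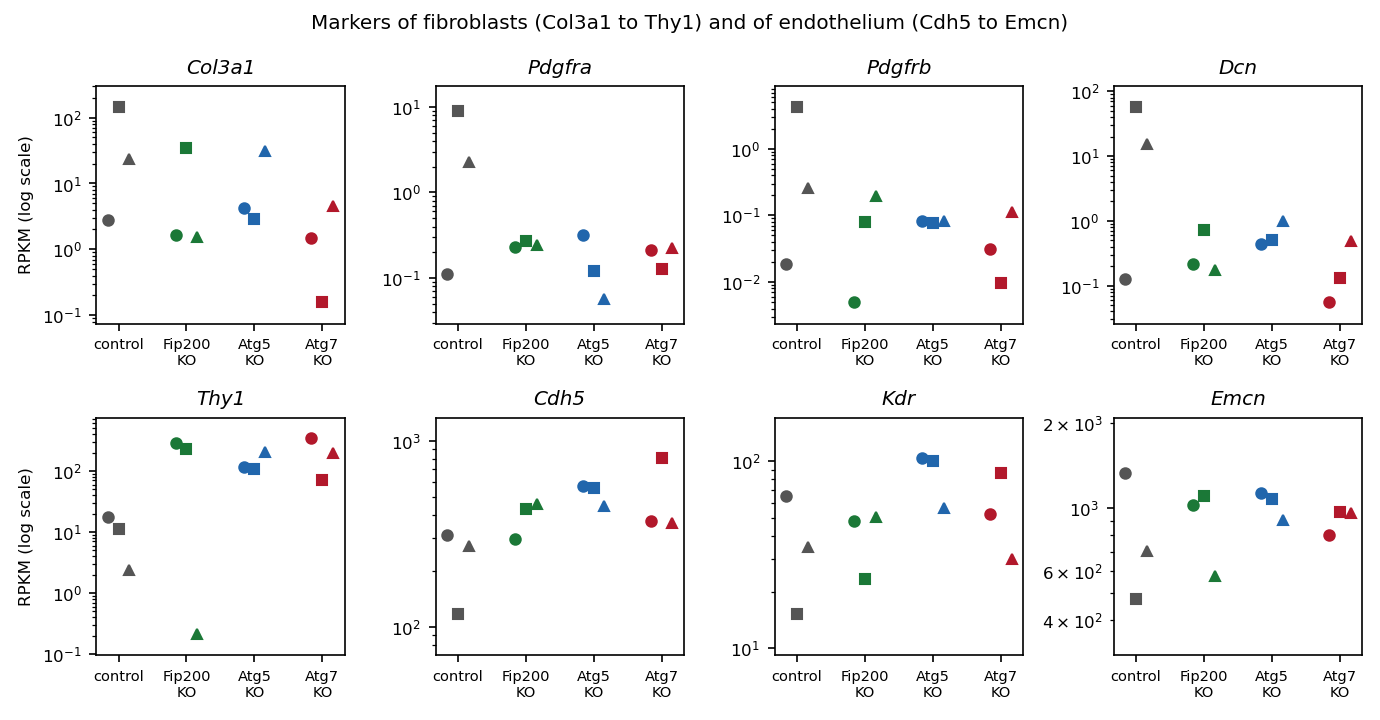
RPKM of 5 fibroblast markers (Col3a1, Pdgfra, Pdgfrb, Dcn and Thy1) and 3 endothelial markers (Cdh5, Kdr and Emcn) on log axes by group. Circles, squares and triangles are replicates 1, 2 and 3, and the Pdgfrb value of 0 in Fip200 KO replicate 1 is drawn at 0.005 RPKM. Control replicate 2 is the highest of the 12 libraries for the first 4 genes and the lowest for Cdh5, Kdr and Emcn.

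The wider pathway was described with 7 lists of 113 genes, of which 100 were among the listed genes. In Fip200 KO 5 of 76 tested genes were called (4 lower, 1 higher), in Atg5 KO 15 of 77 (12 lower, 3 higher), and in Atg7 KO 14 of 76 (10 lower, 4 higher). The shares were 6.58%, 19.5% and 18.4% of those tested, beside 1.98%, 11.2% and 10.1% of all genes. Without control replicate 2 the counts were 0, 11 and 10, and the 0 in Fip200 KO came with 8 genes at an unadjusted p under 0.05 by limma. Voom on the recovered reads called 4, 15 and 13 with all libraries. With the prefix fitted beside the group the counts were 1, 11 and 1, and Fam20c was the gene called in Fip200 KO and in Atg7 KO. Of the genes called in at least 2 KO groups, some lost their call with log2 values still beyond the fold threshold. In Fip200 KO these were Tgm2 (2.99), Itgb4 (−1.17), Lims2 (−1.60) and Nedd9 (−1.73). In Atg7 KO they were Tnc (2.72), Tgm2 (1.61), Lyve1 (1.13), Vcan (−3.84), Itgb7 (−3.55), Lims2 (−2.76), Ptk2b (−1.93) and Itgb4 (−1.55). Srgn (−0.097) and Nedd9 (0.47) in Atg7 KO were under it.

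Among the other integrin subunits 11 were tested, and those called were all lower, with 1, 2 and 4 of them for loss of Fip200, Atg5 and Atg7. Of all genes tested, 1.64%, 6.94% and 6.81% were called lower in the same order. Itgb4, the β chain of the laminin receptor α6β4, was at 0.953 to 2.27 RPKM in control and at most 0.431 in any KO library. Its Fip200 KO call was lost without Fip200 KO replicate 1 (adjusted p = 0.134 by limma) or 2 (0.181), with the prefix fitted (0.402), with the replicate block (0.141) and at a pseudocount of 1 (0.104). At that pseudocount its Atg5 KO value of −0.89 was under the fold threshold, and its Atg7 KO call was lost with the prefix fitted (0.326). Itgb7, the other partner of α4, was at 0.592, 13.0 and 4.73 RPKM in control and at most 0.409 in the KO libraries, with log2 fold changes of −2.64 in Atg5 KO (adjusted p = 0.051 by limma) and −2.54 in Atg7 KO (0.081), and of −2.49 in Fip200 KO, which did not pass (0.214) but was called with array weights (0.069) and when all 12 libraries were fitted together (0.063). All KO libraries of Itgb4 and Itgb7 were under 0.5 RPKM. Both genes thus entered the tests only through the controls and could only come out lower. Without the filter Itgb7 in Atg7 KO was not called (adjusted p = 0.114 by limma). The Itgb7 calls in Atg5 KO and Atg7 KO were lost when any 1 of the KO libraries was left out (adjusted p = 0.108 to 0.167 by limma), and without any 1 of the controls neither gene passed the filter. Both Itgb7 calls were also lost with voom (adjusted p = 0.126 and 0.157 by voom). That of Atg7 KO was lost with the prefix fitted (0.139 by limma) and with the replicate block (0.129). Without control replicate 2 the list had 0 calls in each of the 3 comparisons by limma, with 0, 2 and 4 genes at an unadjusted p under 0.05, and voom with all libraries called 1, 1 and 2. Of the chains that make up α4β1 and α4β7, Itga4 was called higher, Itgb7 lower in 2 KO groups, and Itgb1 was not called. Itga7 and Itga8 were the further genes called in Atg7 KO.

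The enzymes that modify osteopontin included 2 genes called in all 3 KO groups. Fam20c, the Golgi kinase that phosphorylates secreted proteins of this kind, was at 2.32, 9.22 and 7.74 RPKM in control and at most 0.749 in any KO library. Its log2 fold changes were −3.46 for Fip200, −2.57 for Atg5 and −2.81 for Atg7 (adjusted p = 0.036, 0.010 and 0.019 by limma). Tgm2, a transglutaminase that cross-links extracellular proteins, was at 2.12 to 4.45 RPKM in control and 6.87 to 29.9 in the KO libraries. It rose by 2.75, 2.03 and 2.5 on the log2 scale in the same order (adjusted p = 0.027, 0.008 and 0.032 by limma). The Fip200 KO call of Tgm2 was lost without control replicate 2 (0.114), control replicate 3 (0.248) or Fip200 KO replicate 2 (0.104), and its Atg7 KO call without control replicate 3 (0.122) or Atg7 KO replicate 1 (0.109). With the prefix fitted beside the group all 3 calls of Tgm2 were lost (adjusted p = 0.278, 0.185 and 0.636 by limma), at log2 values of 2.99, 1.64 and 1.61. Fam20c lost its Fip200 KO call without Fip200 KO replicate 2 (0.115), and since its Fip200 KO libraries were at 0.0336 to 0.0662 RPKM it entered that test only through the controls and left it without any 1 of them (adjusted p = 0.054 by limma without the filter). Mmp2 and Mmp3, matrix metalloproteinases, were the other tested genes of this list and were not called.

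Of the other ligands of these receptors, 0 of 12 tested genes were called in Fip200 KO by limma (0 by voom, 3 at an unadjusted p under 0.05), 3 of 13 in Atg5 KO and 4 of 13 in Atg7 KO. In Fip200 KO, Tnc and Vcan were called with array weights (adjusted p = 0.020 and 0.042 by limma) and when all 12 libraries were fitted together (0.062 and 0.073), and Tnc without Fip200 KO replicate 1 (0.0999). Tnc, the matrix glycoprotein tenascin-C and a ligand of α9β1 and αvβ3, was at 18.6 to 58.0 RPKM in control and 59.2 to 343 in the KO libraries. It rose in Atg5 KO (log2 2.56, adjusted p = 0.007 by limma) and Atg7 KO (2.73, 0.017), with 2.10 in Fip200 KO (0.191). Vcan, the hyaluronan-binding proteoglycan versican, fell in Atg5 KO (log2 −4.24, adjusted p = 0.004 by limma) and Atg7 KO (−3.71, 0.024), with −2.95 in Fip200 KO (0.180). Srgn, the proteoglycan serglycin that binds CD44, was at 113 to 150 RPKM in control and fell in Atg5 KO (−1.77, adjusted p = 0.011 by limma) and Atg7 KO (−1.28, 0.031). Without control replicate 2 the Atg7 KO call of Srgn was lost (0.103), and without control replicate 3 that of Vcan (0.101). With array weights the Atg7 KO value of Srgn was −0.95, under the fold threshold. With the prefix fitted, Srgn was at −1.37 in Atg5 KO (0.150) and −0.097 in Atg7 KO (0.977) and neither call was kept. Ctgf was the further gene called in Atg7 KO. Of the other members of the osteopontin family, Dmp1 was at most 2.74 RPKM and was not tested, as was Icosl, a receptor of osteopontin outside the integrins, at most 0.288 RPKM.

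Of 28 tested integrin adaptors and kinases, 2, 2 and 3 were called for Fip200, Atg5 and Atg7, each of them lower. Of all genes tested, 1.98%, 11.2% and 10.1% were called in the same order, and 1.64%, 6.94% and 6.81% were called lower. Lims2, an adaptor in the complex of integrin-linked kinase, was at 3.78 to 10.1 RPKM in control and at most 1.55 in the KO libraries, with log2 fold changes of −2.44, −3.35 and −3.11 (adjusted p = 0.098, 0.005 and 0.009 by limma). Its Atg5 KO libraries were all under 0.5 RPKM, so that it entered that test only through the controls and left it without any 1 of them (adjusted p = 0.007 by limma without the filter). Ptk2b, the kinase PYK2, was at 11.0 to 13.2 RPKM in control and fell in Atg5 KO (−1.63, adjusted p = 0.004 by limma) and Atg7 KO (−1.59, 0.012), whereas in Fip200 KO it had 5.45 to 15.5 RPKM and was not called. Nedd9, a docking protein at focal adhesions, fell in Fip200 KO (−1.52, adjusted p = 0.080 by limma) and Atg7 KO (−1.10, 0.060). The Fip200 KO calls of Lims2 and Nedd9 were lost without any 1 of 5 and 5 of the 6 libraries, with adjusted p-values of 0.108 to 0.490 and 0.120 to 0.459 by limma, and the Atg7 KO call of Nedd9 without 4 (0.109 to 0.185). The Atg7 KO value of Nedd9 was 0.47, on the other side of 0, once the prefix was fitted beside the group.

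Among CD44 partners and hyaluronan genes, 10 were tested. Lyve1, the hyaluronan receptor of lymphatic endothelium, rose in Atg5 KO (1.25, adjusted p = 0.048 by limma) and Atg7 KO (1.11, 0.095), with 1.12 in Fip200 KO (0.352). These calls of Lyve1 were lost with the prefix fitted, at log2 values of 1.53 and 1.13 (adjusted p = 0.148 and 0.695 by limma). They were also lost without any 1 of 4 libraries in Atg5 KO (0.103 to 0.121) and any 1 of 5 in Atg7 KO (0.158 to 0.233), control replicates 2 and 3 among them. The Atg7 KO call of Lyve1 was also lost without a filter, without a variance trend, with the replicate block, with voom and with all 12 libraries in one fit (0.105 to 0.132). Ezr and Hyal1 were called lower in Atg5 KO. Of 13 transcription factors known to act on Spp1, 11 were tested for Fip200 and Atg5 and 10 for Atg7, and 0 were called in Fip200 KO and Atg7 KO by limma, with 2 and 4 at an unadjusted p under 0.05 and 0 by voom in both. In Atg7 KO, Hif1a was called with array weights (−1.14, adjusted p = 0.014 by limma), when all 12 libraries were fitted together (0.092) and without Atg7 KO replicate 2 (−1.36, 0.025), and 1 gene of the list was called without control replicate 2. In Fip200 KO the CD44 list also had 0 calls by limma and voom, with 1 gene at an unadjusted p under 0.05, and Lyve1 was called there with array weights (1.72, 0.054). Runx1, Runx2 and Hif1a were called lower in Atg5 KO. In that comparison Runx2 reached 0.5 RPKM only in control replicates 2 and 3 and Atg5 KO replicate 3. It therefore left the test without any 1 of these libraries. Hif1a fell under the fold threshold in Atg5 KO without Atg5 KO replicate 1 (−0.94) and lost its call there with the prefix fitted (0.177). Hif1a was at 170 to 207 RPKM in control and 52.4 to 160 in the KO libraries, with log2 fold changes of −0.52, −1.10 and −1.0, the last at an adjusted p of 0.104 by limma. Jun, a subunit of AP-1, overlapped control in all 3 KO groups at 47.2 to 101 RPKM over the 12 libraries.

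**Figure D5:**
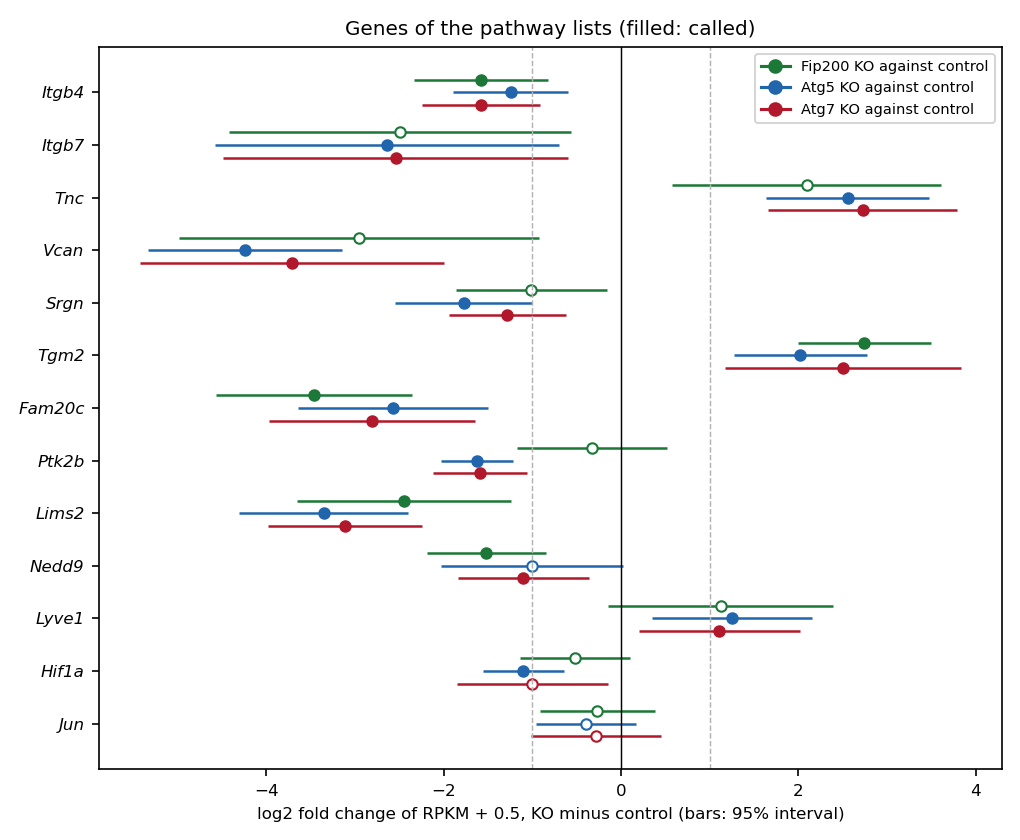
Log2 fold change of RPKM plus 0.5 with 95% intervals for 13 genes of the pathway lists in each KO against control, 3 libraries against 3. Filled points were called, and dashed lines mark a log2 fold change of 1 in either direction. Tnc, Tgm2 and Lyve1 lie right of 0 and the other 10 genes lie left of 0.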

How the data were processed

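RNA-sequencing of 12 libraries was analysed from the 3 tables the authors deposited, each holding one KO group beside the same 3 controls. The deposited values were taken as RPKM per gene, normalized by the authors to gene length and library total. The tables do not name the unit, which was read from the values. Per the labels and methods, reads from a directional kit were aligned with TopHat2 and analysed with edgeR. Versions, genome build, annotation and strand setting are not given in the sources used here. The tables also hold the authors' own fold changes and p-values, which were not used. RPKM values were whole multiples of a per-gene step within 0.0001 for 14851 genes, from which library totals and reads were recovered.

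From the RPKM values, log2 of RPKM plus 0.5 was fitted with limma 3.58.1 in R 4.3.3 (eBayes with a trend), with 6 libraries for each KO against control and 12 for other contrasts, over genes that reached 0.5 RPKM in 3 or more libraries. p-values were adjusted by Benjamini-Hochberg. Exact permutation tests used scipy 1.17.1 and were two-sided. The fits were tested on simulated data. The members and lists were chosen with earlier results of these data known. Text names every member, list genes called in at least 2 KO groups (or, in lists with none, the 2 most abundant), and the 5 and 3 genes most correlated with Spp1 and Itgb5; further list genes were named after their values were seen. Alternatives covered pseudocounts of 0.1 and 1, no filter, median-of-ratios scaling, no trend, array weights, prefix, replicate block, 12-library fits, single libraries left out and, added after seeing the data, voom on recovered reads. Replicate numbers did not pair the samples. Promoter letters came from RefSeq (GRCm38.p6), which matched 8 of the 9 members.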

Additional observations from a re-analysis of the deposited data

Results flagged for a closer look

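Itgav, the αv chain, had values on opposite sides of control in 2 KO groups, neither of them called. All 3 Atg5 KO libraries lay below and all 3 Atg7 KO libraries lay above the geometric mean of control, with log2 fold changes against control of −0.59 (adjusted p = 0.061 by limma) and 0.19 (0.557), the latter with libraries that overlapped control. The direct difference of Atg7 KO from Atg5 KO was 0.78 on the log2 scale (95% interval 0.26 to 1.3) and did not pass (adjusted p = 0.894 by limma over 12233 genes), with no overlap between the libraries of the 2 groups, an arrangement found in the same direction for 5.38% of tested genes. With the library-name prefix fitted beside the group the values against control were −0.85 in Atg5 KO and −0.23 in Atg7 KO, and their difference was 0.62, which did not pass (adjusted p = 1.0 by limma).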

How the results depend on the processing

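Of 1053 alternatives to the 56 member values, 972 kept direction and side of the thresholds, 18 lost a call, 7 gained one and 56 changed sign, all of the last on values that were not called. The causes were not tested. Fits that a gene did not enter were not counted. Itgb5 in Atg7 KO, which left the test without any 1 of the controls, thus had 13 alternatives, against 16 for Spp1. The count of members called in Fip200 KO (1) became 0 without a filter, 0 with the library-name prefix fitted beside the group and 2 with array weights, where calls over all genes went from 234 to 1141. The Atg7 KO count (3) became 0 with the prefix. It stayed at 3 without control replicate 2, where Itgb5 left the test and Itgb3 was called. Between KO groups the counts of 0 became 2 (Atg5 KO and Fip200 KO) and 1 (Atg7 KO and Atg5 KO) with array weights, which called 462 and 381 of 12233 genes against 0 here. For the pathway lists, the 5 calls in Fip200 KO became 3 without a filter, 13 with array weights, 1 with the prefix, 8 with all 12 libraries in one fit and 2 with the replicate block, and the 14 in Atg7 KO became 1 with the prefix. Deviations of same-numbered libraries correlated between −0.50 and 0.25, with 2 of 18 pairs over 0.1, and the replicate block left the member counts at 1, 3, 3 and 3. Leaving out single libraries gave 0 to 1 members in Fip200 KO, 2 to 3 in Atg5 KO, 2 to 4 in Atg7 KO, 2 to 3 for the mean and 0 between KO groups, and 0 to 5, 10 to 19 and 7 to 15 list genes. Over all alternatives the adjusted p by limma of Spp1 ran from 0.001 to 0.069 in Atg5 KO and from 0.007 to 0.297 in Atg7 KO, and that of Itga4 from 0.001 to 0.078 and from 0.002 to 0.179, with Itga4 in Atg5 KO under the fold threshold at a pseudocount of 1.

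Signs that changed are given as log2 values. With the prefix they were 0.0088 for Itgb1 in Atg5 KO, −0.23 for Itgav and 0.47 for Nedd9 in Atg7 KO, and 0.21 for Jun in Fip200 KO. Between KO groups the prefix gave 0.44 for Itgb3 in Atg5 KO against Fip200 KO, −0.74 for Itgav, 0.047 for Itgb1 and 0.66 for Itgb3 in Atg7 KO against Fip200 KO, and 0.35 for Spp1, −0.076 for Cd44, 0.21 for Itgb3 and 0.38 for Itgb5 in Atg7 KO against Atg5 KO. Array weights gave −0.0053 for Itga5 in Atg5 KO, 0.14 for Cd44 and −0.053 for Itgb1 in Atg7 KO, 0.022 for Cd44 and 0.033 for Itgav in the mean, 0.013 for Itgb3 and 0.32 for Itgb5 in Atg5 KO against Fip200 KO, and −0.18 for Itgav in Atg7 KO against Fip200 KO. Median-of-ratios scaling gave −0.027 for Itga5 in Atg5 KO and −0.0037 for Itgb1 in the mean. Voom gave −0.00041 for Itgb1 in Atg7 KO, and 0.085 and 0.044 for Itgb5 in Atg5 KO and Atg7 KO against Fip200 KO. With single libraries left out, the ranges that crossed 0 against control were, in Fip200 KO, −0.10 to 0.33 for Itgav, −0.065 to 0.43 for Itga5 and −0.67 to 0.036 for Ptk2b, in Atg5 KO −0.11 to 0.0094 for Itgb1, in Atg7 KO −0.14 to 0.13 for Cd44 and −0.058 to 0.059 for Itgb1, and in the mean −0.23 to 0.049 for Cd44, −0.26 to 0.10 for Itgav, −0.031 to 0.085 for Itgb1 and −0.035 to 0.13 for Itga5. Between KO groups they were −0.43 to 0.18 for Itgb3, −0.71 to 0.38 for Itgb5 and −0.40 to 0.094 for Itga5 in Atg5 KO against Fip200 KO, −0.13 to 0.28 for Itgav, −0.59 to 0.022 for Itgb3, −0.81 to 0.28 for Itgb5 and −0.16 to 0.41 for Itga4 in Atg7 KO against Fip200 KO, and −0.58 to 0.016 for Spp1, −0.0092 to 0.10 for Itgb1 and −0.34 to 0.15 for Itgb5 in Atg7 KO against Atg5 KO. At 17264989 to 23627965 reads per library, Itga9 was too low to be compared.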
